A study of Homo sapiens with 12 samples.

Results

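The 7 genes described here encode the chains of the pre-B cell receptor and their close relatives: VPREB1, IGLL1, VPREB3, IGLL5, IGHM, CD79A and CD79B. They were chosen by symbol, without regard to their values, from the 57905 human genes listed for 2 single-cell RNA-seq libraries of Nalm-6, an established human pre-B acute lymphoblastic leukaemia (B-ALL) cell line. All 7 were listed in both libraries, 6 had transcripts in both, and IGLL5 had none in either.

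The series comprised 12 samples, of which 10 were ChIP-seq profiles that were not analysed here. In both single-cell libraries the cells were Nalm-6 cells carrying a Tet-On regulator and a lentiviral response vector with a puromycin resistance gene, grown in Tet-system approved serum, depleted of dead cells and labelled 72 h. The control library was titled DMSO, and its genotype label was empty vector; whether it received doxycycline was not given in its labels. In the other library the vector carried RUNX1 cDNA, and the cells were induced with 500 ng/ml doxycycline for 72 h. Each group was 1 library from 1 cell line, without replicates, so vector insert, inducer, solvent and library cannot be told apart, no test between the libraries was possible, and all intervals below are 95% intervals for counting error only.

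The pre-B cell receptor is the checkpoint receptor of early B cell development. It forms when a newly rearranged immunoglobulin μ heavy chain pairs with the surrogate light chain, made of the VPREB1 and IGLL1 (λ5) proteins, before any conventional light chain is available. The CD79A and CD79B heterodimer carries the intracellular tyrosine motifs that pass its signal on to SRC family kinases and SYK. Pre-B cells with a working receptor first divide and then leave the cycle to rearrange a light chain, when the surrogate light chain genes are normally shut off.

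After the filters on genes and mitochondrial content, 5598 of 6073 control barcodes and 4800 of 5491 barcodes of the other library were kept, with 75754137 and 75350615 UMIs (unique molecular identifiers, each counting 1 captured transcript) and medians of 12505.5 and 14805 UMIs per cell. RUNX1 itself went against the label: it was counted at 69.7 CPM (UMI counts-per-million; 67.9 to 71.6) in the control and at 30.4 CPM (29.1 to 31.6) in the RUNX1-labelled library. The assay reads the 3′ ends of transcripts, and whether transcripts of the vector were counted under RUNX1 was not tested. The induced library is therefore called the RUNX1-labelled library throughout. Mitochondrial genes took 9.45% of UMIs in the control and 13.1% in the RUNX1-labelled library. Of the 14 B cell precursor markers in the files, 14 in the control and 13 in the RUNX1-labelled library reached 10 CPM, summing to 3801 and 3239 CPM. Of the markers of T cells, myeloid cells, NK cells and erythroid cells, CD3D, CD3G, S100A8, S100A9, NCAM1, HBA1, HBA2 and HBB had 0 UMIs in both libraries, whereas others of the same lists were detected, mainly TRAC (576 and 702 UMIs), LYZ (154 and 117 UMIs) and NKG7 (570 and 1624 UMIs). The summed T cell level was 7.63 CPM in the control against 9.58 CPM in the RUNX1-labelled library, and the summed myeloid level 2.31 and 1.98 CPM. The summed mature B marker level was 47.1 CPM in the control against 82.1 CPM in the RUNX1-labelled library. The summed NK level was 7.71 and 22.3 CPM, and the summed plasma cell level 486 and 638 CPM. IGHD made up 45.3 and 41.5 CPM of the mature B sums. MS4A1 (0.594 and 12.3 CPM), CD37 (0.528 and 23.0 CPM), FCER2 (0.462 and 2.65 CPM) and CD40 (0.145 and 2.67 CPM) were higher in the RUNX1-labelled library, and CR2 had 0 UMIs in both. XBP1 made up 475 and 615 CPM of the plasma cell sums. The part of all these markers in the results was not tested. Only 10 passing barcodes were shared by both libraries, 0.179% and 0.208% of each.

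The libraries differed in their share of cycling cells, and every comparison below was therefore also made within cycling state. Cells called S or G2/M from their expression scores were taken as cycling and cells called G1 as non-cycling. Of the control cells, 5131 (91.7%) were cycling and 467 (8.34%) were not. In the RUNX1-labelled library, 1866 (38.9%) were cycling and 2934 (61.1%) were not. Median UMIs per cell were 12774 in cycling and 10096 in non-cycling control cells, against 20228 and 11658.5 in the RUNX1-labelled library.

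Of the 7 genes, 4 lie on chromosome 22 around the immunoglobulin λ locus, within 1497 kb. On GRCh37, the build of the deposited counts, VPREB1 spans 22599192 to 22599927 on the plus strand of chromosome 22, IGLL5 23229960 to 23238291 (plus), IGLL1 23915312 to 23922489 (minus) and VPREB3 24094930 to 24096612 (minus). IGHM, the μ constant gene, lies on chromosome 14 at 106318037 to 106322323 (minus). CD79A lies on chromosome 19 at 42381349 to 42385439 (plus) and CD79B on chromosome 17 at 62006098 to 62009696 (minus).

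The 250 bases upstream of the annotated start are shown for 4 of the 7 genes, those with an entry in the RefSeq promoter table. They include the genes with the largest differences between libraries (VPREB1, CD79A, VPREB3) and between cycling states (CD79A, IGLL1). The coordinates are on GRCh38.p14, not the build of the counts, and each sequence is written in the direction of transcription. Capitals mark matches, on either strand, to the RUNX core TGTGGT and the octamer ATTTGCAT.
VPREB1, chr22:22244536-22244785, plus strand: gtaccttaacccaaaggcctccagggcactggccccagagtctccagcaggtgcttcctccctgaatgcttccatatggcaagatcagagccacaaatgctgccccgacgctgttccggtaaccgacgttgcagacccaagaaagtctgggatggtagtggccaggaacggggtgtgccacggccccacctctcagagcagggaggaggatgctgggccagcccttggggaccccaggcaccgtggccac
IGLL1, chr22:23580291-23580540, minus strand: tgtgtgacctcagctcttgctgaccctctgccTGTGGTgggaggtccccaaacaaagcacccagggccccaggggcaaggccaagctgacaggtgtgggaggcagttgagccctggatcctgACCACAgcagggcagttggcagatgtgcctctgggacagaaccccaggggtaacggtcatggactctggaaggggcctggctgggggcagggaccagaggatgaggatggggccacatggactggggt
VPREB3, chr22:23754426-23754675, minus strand: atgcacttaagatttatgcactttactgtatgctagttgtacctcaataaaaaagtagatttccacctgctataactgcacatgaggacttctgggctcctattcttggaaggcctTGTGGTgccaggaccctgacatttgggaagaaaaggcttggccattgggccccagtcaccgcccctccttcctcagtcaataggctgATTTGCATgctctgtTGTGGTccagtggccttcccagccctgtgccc
CD79A, chr19:41877029-41877278, plus strand: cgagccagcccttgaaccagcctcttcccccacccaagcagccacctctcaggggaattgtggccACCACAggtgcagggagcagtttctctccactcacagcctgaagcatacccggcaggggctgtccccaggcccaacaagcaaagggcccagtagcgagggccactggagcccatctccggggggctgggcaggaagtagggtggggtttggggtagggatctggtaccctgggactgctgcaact
The RUNX core was absent from the VPREB1 window, was found 2 times in the IGLL1 window and 2 times in the VPREB3 window, and was found 1 time in the CD79A window. Of 35116 promoter windows of this length, 11.0% held at least 1 such match and 0.971% at least 2. The octamer, the recognition sequence of POU factors, was found 1 time, 47 to 40 bases before the start of VPREB3, and in 1.63% of all windows. The E-box CANNTG, the core recognised by TCF3, was found 3 times at VPREB1, 5 times at IGLL1, 3 times at VPREB3 and 1 time at CD79A, where it overlapped the RUNX core by 2 bases (61.8% of all windows held at least 1). The EBF core CCCNNGGG was found 1 time at VPREB1 and 4 times, in overlapping pairs, at IGLL1, and in 17.1% of all windows. These are matches of letters, and binding was not measured here.

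Within each library the surrogate light chain genes VPREB1 and IGLL1 were the most abundant members. Levels of different genes are compared here in CPM, where each transcript gives 1 tag at its 3′ end whatever its length. In the control the order was IGLL1 (1593 CPM), VPREB1 (1022), IGHM (725), CD79B (331), VPREB3 (222) and CD79A (144). In the RUNX1-labelled library it was VPREB1 (2318 CPM), IGLL1 (1520), IGHM (611), CD79B (443), VPREB3 (395) and CD79A (293). Only the first and second places were exchanged. Neighbours in the order had intervals that did not meet, except CD79B and VPREB3 in cycling cells of the RUNX1-labelled library (400 and 390 CPM) and VPREB3 and CD79A in non-cycling control cells (254 and 241 CPM).

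**Figure D1:**
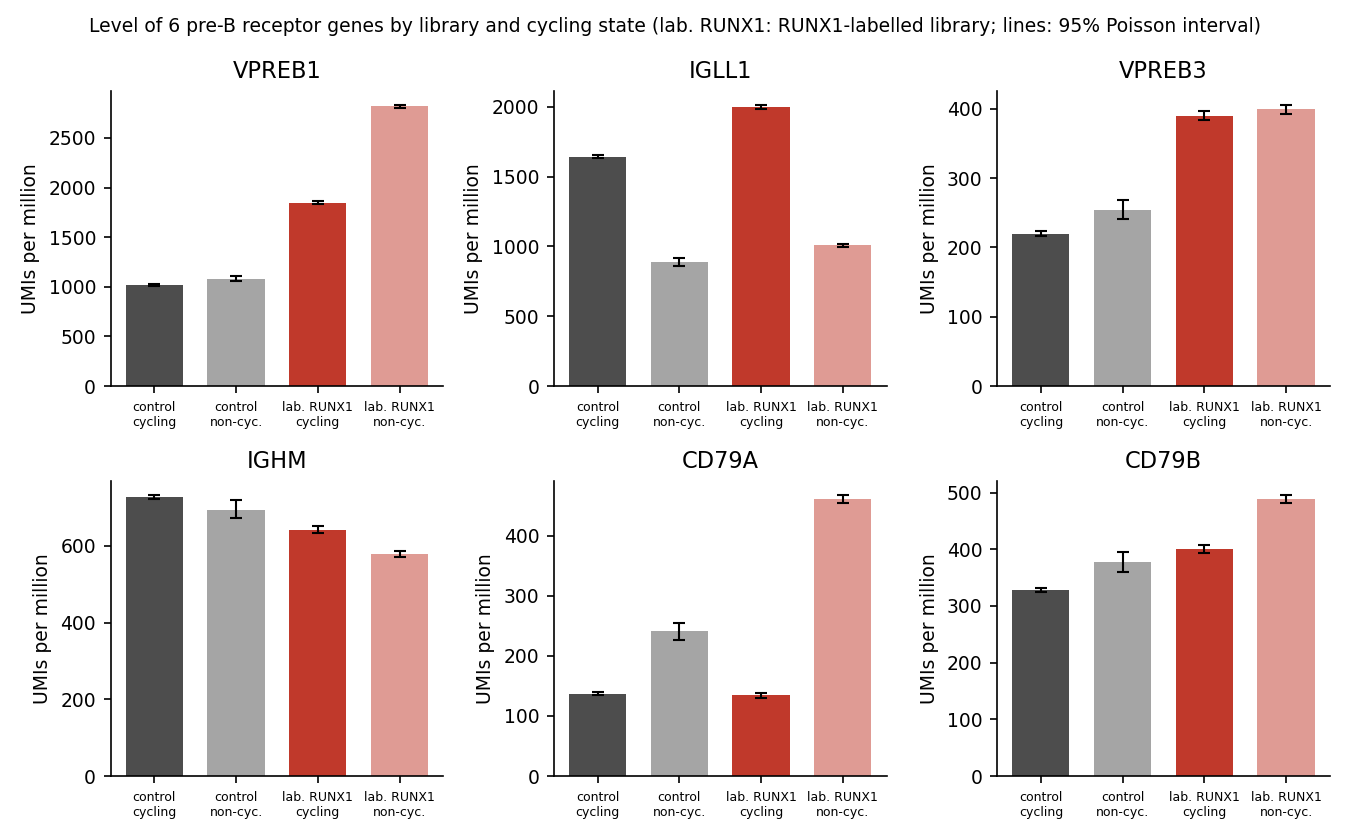
CPM of the 6 detected genes (bars) in cycling and non-cycling cells of the control and of the RUNX1-labelled library (1 library each), with 95% Poisson intervals as lines. VPREB1 and VPREB3 are higher in both states of the RUNX1-labelled library, IGLL1 is lower in the non-cycling cells of both libraries, and CD79A reaches 462 CPM in the non-cycling cells of the RUNX1-labelled library against 134 CPM in its cycling cells.

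A gene was counted as higher or lower where its level differed by at least 0.5 on the log2 scale (1.41-fold). Over all cells, 3 of the 7 genes, VPREB1, CD79A and VPREB3, were higher in the RUNX1-labelled library and 0 were lower. Among all 7980 genes that reached 10 CPM in either library or both, 13.8% were higher and 21.4% lower by this measure. The median log2 ratio of the 6 detected genes was 0.63, and that of all genes was -0.13. Within cycling cells 2 of the 7, VPREB1 and VPREB3, were higher and 0 lower, beside 6.54% and 12.9% of all genes. Within non-cycling cells 3, VPREB1, CD79A and VPREB3, were higher and 0 lower, beside 22.3% and 21.3% of all genes. The median of the 6 genes was 0.29 in cycling and 0.51 in non-cycling cells, and that of all genes was -0.14 and -0.018.

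VPREB1, which supplies the variable-like chain of the surrogate light chain, had the largest log2 ratio among the 6 genes as scaled here. With a 10% mitochondrial limit CD79A was above it over all cells (1.497 against 1.374), as it was with averaged per-cell shares (1.43 against 1.27). Its level was 1018 CPM (1010 to 1025) in cycling and 1082 CPM (1054 to 1112) in non-cycling control cells. In the RUNX1-labelled library it was 1849 CPM (1835 to 1862) in cycling cells and 2818 CPM (2801 to 2835) in non-cycling cells. Both states of the RUNX1-labelled library were above both states of the control, and the 2 control states lay within 1.06-fold of each other. The log2 ratio was 1.18 (1.17 to 1.19) over all cells, above that of 96.0% of all genes, 0.86 (0.85 to 0.88) in cycling cells and 1.38 (1.34 to 1.42) in non-cycling cells. The ratio was larger in non-cycling cells by 0.52 (0.48 to 0.56).

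IGLL1, the λ5 protein that supplies the constant-like chain of the surrogate light chain, followed the cycling state and differed little between the libraries. Its level was 1642 CPM (1632 to 1651) in cycling and 887 CPM (861 to 914) in non-cycling control cells. In the RUNX1-labelled library it was 2002 CPM (1988 to 2016) in cycling and 1007 CPM (997 to 1017) in non-cycling cells. Non-cycling cells were thus 1.85-fold lower in the control and 1.99-fold lower in the RUNX1-labelled library. Between libraries IGLL1 was higher by 0.29 (0.27 to 0.30) in cycling and by 0.18 (0.14 to 0.23) in non-cycling cells on the log2 scale, whereas over all cells its log2 ratio was -0.067 (-0.079 to -0.055), and 0.13 with totals taken without mitochondrial and ribosomal protein genes. In cycling cells the ratio between libraries was above that of 86.1% of all genes, and it ranged from 0.24 to 0.497 over the alternatives tried. The sign over all cells was opposite to that within each state, and the RUNX1-labelled library held far more of the non-cycling cells, in which IGLL1 was low.

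The partner chains of the surrogate light chain therefore differed in their ratio to each other. VPREB1 was below IGLL1 in the summed cycling cells of both libraries and above it in non-cycling cells of both. Within the cycling cells of the RUNX1-labelled library, VPREB1 and IGLL1 were level in S cells (1711 and 1719 CPM). In its G2/M cells VPREB1 was the lower (2023 and 2359 CPM). In the non-cycling cells of the RUNX1-labelled library VPREB1 stood at 2818 CPM against 1007 CPM for IGLL1.

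VPREB3 is a VPREB1 relative that binds newly made heavy chains inside the cell and is not part of the surface receptor. It was higher in the RUNX1-labelled library in both states. Control cells had 220 CPM (216 to 223) when cycling and 254 CPM (240 to 269) when not. Cells of the RUNX1-labelled library had 390 CPM (384 to 396) and 400 CPM (393 to 406). The log2 ratio was 0.83 (0.80 to 0.86) in cycling and 0.65 (0.57 to 0.74) in non-cycling cells. The non-cycling log2 ratio minus the cycling one was -0.18 (-0.27 to -0.088). Averaging per-cell shares in place of summed UMIs brought the non-cycling log2 ratio to 0.46, below the limit of 0.5.

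IGLL5, which shares its name with IGLL1 but lies inside the λ constant locus, had 0 UMIs in both libraries. A count of 0 leaves an upper limit of 0.0487 CPM in the control against 0.0490 CPM in the RUNX1-labelled library. Its last exon covers all 460 bases of the λ constant gene IGLC1, and IGLC1 also had 0 UMIs in both libraries. Cell Ranger counts a read only where it is assigned to a single gene, and the part of this overlap in the 0 counts was not tested.

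IGHM, the μ heavy chain that the surrogate light chain pairs with, was slightly lower in the RUNX1-labelled library. It stood at 727 CPM (721 to 733) in cycling and 694 CPM (671 to 718) in non-cycling control cells. The RUNX1-labelled library had 642 CPM (634 to 650) and 579 CPM (571 to 586). The log2 ratio was -0.25 (-0.26 to -0.23) over all cells, which did not reach 0.5 and was 0.046 with a 10% mitochondrial limit. IGHM was the member that varied least between the 4 groups.

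CD79A, which with CD79B anchors and signals for the receptor, was the member that differed most between cycling states in the RUNX1-labelled library. In the control IGLL1 differed more, with a log2 ratio of -0.89 for non-cycling over cycling cells. Cycling cells of both libraries had nearly the same CD79A level, 137 CPM (134 to 140) in the control and 134 CPM (131 to 138) in the RUNX1-labelled library. Non-cycling cells had 241 CPM (227 to 255) in the control and 462 CPM (455 to 469) in the RUNX1-labelled library. The log2 ratio of non-cycling over cycling cells was 0.81 (0.73 to 0.90) in the control and 1.78 (1.74 to 1.83) in the RUNX1-labelled library. Between libraries the log2 ratio was 1.02 (0.99 to 1.06) over all cells, -0.031 (-0.079 to 0.018) in cycling cells and 0.94 (0.85 to 1.02) in non-cycling cells. The interval in cycling cells covers 0 and stays well below 0.5 in either direction, but it holds counting error only. Variation between libraries is not in it.

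CD79B, the partner of CD79A, moved far less. The control had 328 CPM (324 to 332) in cycling and 377 CPM (360 to 395) in non-cycling cells. The RUNX1-labelled library had 400 CPM (394 to 407) and 489 CPM (482 to 496). The log2 ratio between libraries was 0.29 (0.26 to 0.32) in cycling and 0.38 (0.31 to 0.45) in non-cycling cells, below the limit in both, but in non-cycling cells it was 1.13 with a 10% mitochondrial limit and 0.52 with totals taken without mitochondrial and ribosomal protein genes. Over all cells the log2 ratio of CD79B was 0.42 (0.40 to 0.44), and it passed 0.5 with those totals (0.62), with averaged per-cell shares (0.54) and with a 10% mitochondrial limit (0.89). In cycling cells there were 328 CPM of CD79B and 137 CPM of CD79A in the control, and in non-cycling cells of the RUNX1-labelled library the partners stood at 489 and 462 CPM.

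Between cycling states, 2 of the 7 genes (CD79A and VPREB1) were higher and 1 (IGLL1) was lower in the non-cycling cells of the RUNX1-labelled library, beside 17.5% of all genes higher and 15.6% lower. In the control 1 gene (CD79A) was higher and 1 (IGLL1) lower, beside 3.38% and 11.8% of all genes. In both libraries the ratio of CD79A lay near the top of all genes and that of IGLL1 near the bottom. CD79A was above 98.2% of all genes in the RUNX1-labelled library and above 99.2% in the control, and IGLL1 was above only 6.26% and 5.49%. VPREB1 was 1.52-fold higher in non-cycling than in cycling cells of the RUNX1-labelled library, a log2 ratio of 0.61, against 0.089 in the control. With TMM or median-of-ratios scaling this ratio of VPREB1 came below 0.5.

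To see how much of each difference was left with equal shares of cycling cells, the levels of the RUNX1-labelled library were averaged with the control's UMI shares of the 2 states. VPREB1 then stood at 1912 CPM and its log2 ratio to the control was 0.90 in place of 1.18. CD79A stood at 155 CPM and its log2 ratio was 0.11 in place of 1.02. VPREB3 kept nearly the same log2 ratio, 0.82 against 0.83, and that of IGLL1 turned from -0.067 to 0.28. At the control's shares little of the difference in CD79A was left, whereas most of the difference in VPREB1 and nearly all of that in VPREB3 remained. These shares give cycling cells 93.5% of the weight. Non-cycling cells, where CD79A had a log2 ratio of 0.94, take only 6.51%. The state shares of the RUNX1-labelled library were not tried as weights.

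**Figure D2:**
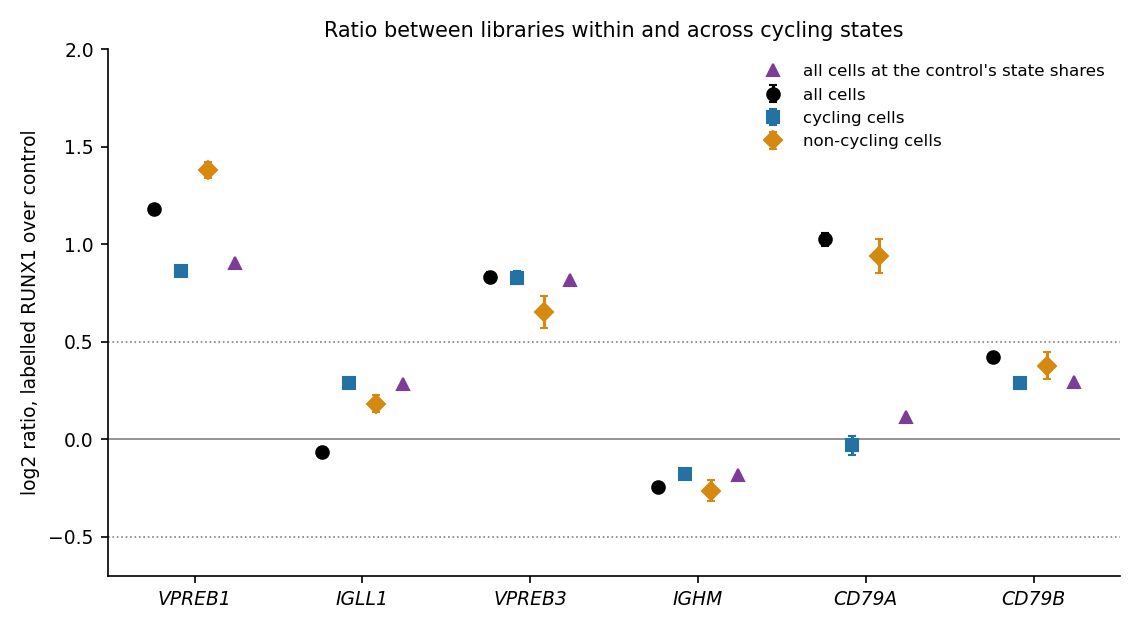
log2 ratio of CPM, RUNX1-labelled library over control (1 library each), for all cells (circles), cycling cells (squares), non-cycling cells (diamonds) and all cells at the control's state shares (triangles, without interval); lines are 95% intervals of counting error and dotted lines mark the limit of 0.5. VPREB1 and VPREB3 lie above the limit throughout, and CD79A lies at -0.031 in cycling cells and at 0.94 in non-cycling cells.

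The cycle score is continuous, and some cells lay within 0.1 of the limit between states (9.86% in the control, 9.90% in the RUNX1-labelled library), so the cells of each library were also divided into 5 equal bins by the larger of their S and G2/M scores. IGLL1 was higher in each bin than in the bin before it in both libraries, from 1067 to 1938 CPM in the control and from 939 to 2253 CPM in the RUNX1-labelled library. CD79A went the other way in the RUNX1-labelled library, with 500, 485, 424, 147 and 123 CPM from the lowest to the highest bin. In the control it was 188 CPM in the lowest bin, where 41.7% of the cells were non-cycling, and between 124 and 145 CPM in the others.

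VPREB1 stayed between 963 and 1103 CPM over the 5 control bins. In the RUNX1-labelled library it was 2959, 2949 and 2630 CPM in the 3 lowest bins, all of whose cells were non-cycling, and 1826 and 1864 CPM in the 2 highest. VPREB3 and IGHM varied little with the score in either library, VPREB3 between 211 and 237 CPM in the control and between 375 and 420 CPM in the RUNX1-labelled library. Median UMIs per cell also differed between bins, from 10348.5 to 15043 in the control and from 11320.5 to 21632.5 in the RUNX1-labelled library, and their part in these levels was not tested.

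**Figure D3:**
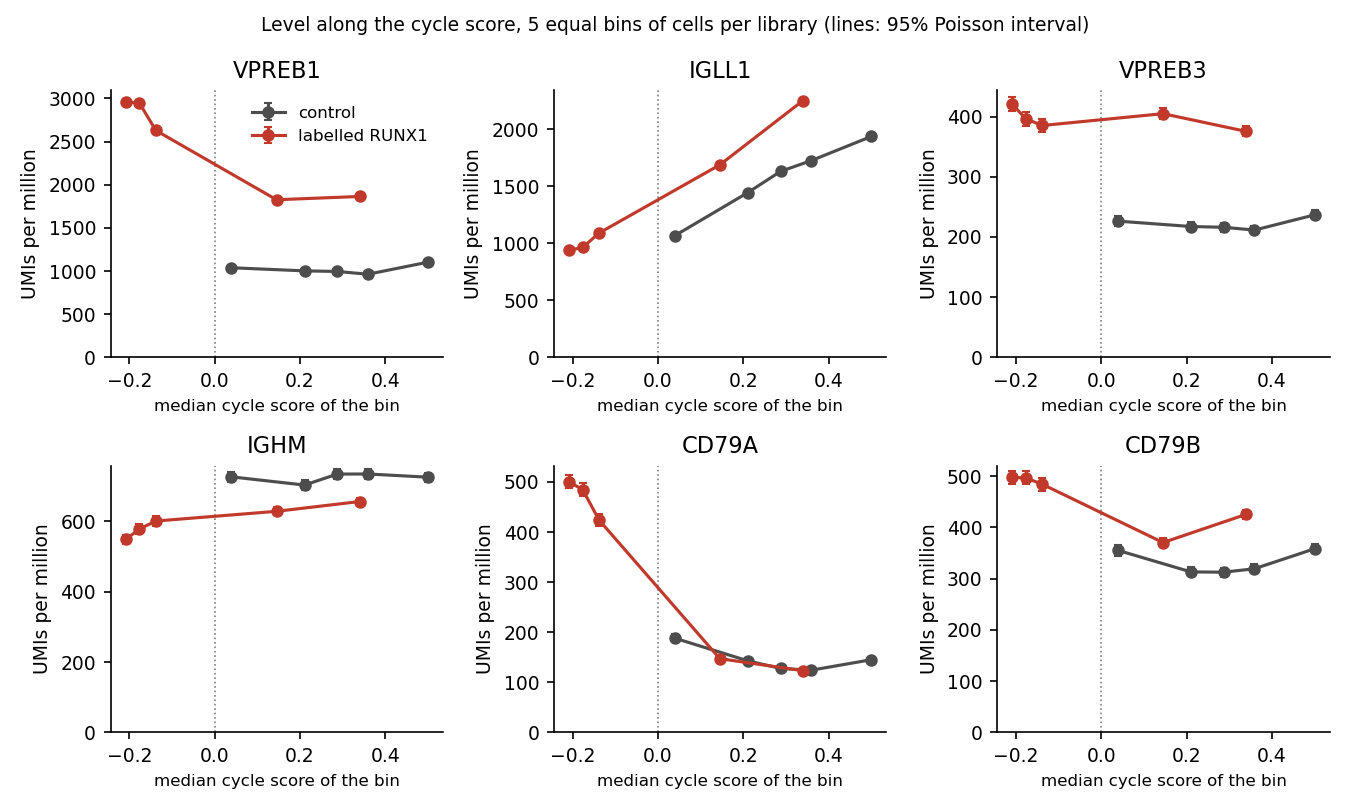
CPM of the 6 detected genes against the median cycle score (no unit) of 5 equal bins of cells per library, with 95% Poisson intervals; the dotted line marks a score of 0. IGLL1 increases along the score in both libraries, CD79A is at 500 CPM in the lowest bin of the RUNX1-labelled library and at 123 CPM in its highest, and VPREB1 of the RUNX1-labelled library is above the control in every bin.

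At the level of single cells, each cell was thinned to 8000 UMIs so that cells of different depth could be compared; 413 control cells and 612 cells of the RUNX1-labelled library were too shallow and were left out. VPREB1 was found in nearly every cell of both libraries, and its difference lay in the number of UMIs per cell. The median was 8 UMIs in cycling and in non-cycling control cells, 14 in cycling cells and 23 in non-cycling cells of the RUNX1-labelled library. Of the cells of the RUNX1-labelled library, 60.6% had more than 14 VPREB1 UMIs, the 90th percentile of the control, against 7.43% of control cells. This share was 45.8% in cycling and 72.2% in non-cycling cells. The distribution was also wider, with a variance-to-mean ratio of 1.67 in non-cycling control cells and of 8.19 in non-cycling cells of the RUNX1-labelled library.

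CD79A was sparser, with a UMI in 54.3% (52.9 to 55.7) of cycling and 73.4% (68.9 to 77.7) of non-cycling control cells after thinning (66.0% and 77.5% unthinned). In the RUNX1-labelled library a CD79A UMI was found in 50.7% (48.4 to 53.0) of cycling and 86.0% (84.6 to 87.4) of non-cycling cells (71.7% and 92.8% unthinned). More than 3 CD79A UMIs were counted in 6.77% of its cycling cells and 42.4% of its non-cycling cells, against 7.08% of control cells. VPREB1 showed the opposite in its share of positive non-cycling cells: 99.3% (97.8 to 99.8) of those of the control had a VPREB1 UMI and 95.2% (94.3 to 96.0) of those of the RUNX1-labelled library, although their mean level was higher. Unthinned, these VPREB1 shares were 99.4% and 91.9%. The same held for IGLL1, detected in 93.5% and 89.1% of non-cycling cells (95.1% and 84.3% unthinned). No cell type lacking these genes was present in the files, so the share of cells with a UMI from free RNA could not be set.

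**Figure D4:**
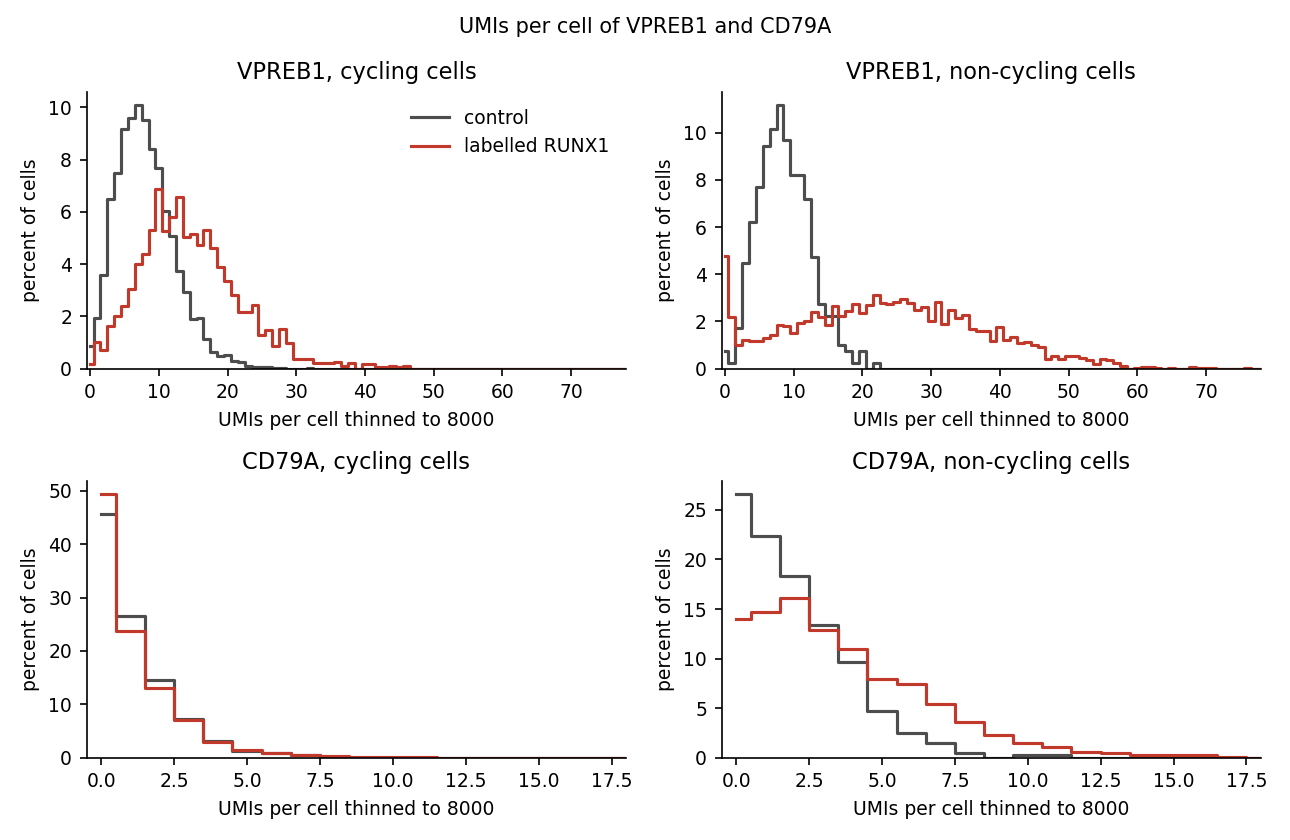
Percent of cells (vertical axis) by UMIs of VPREB1 (top) and CD79A (bottom) per cell thinned to 8000 UMIs (horizontal axis), for cycling (left) and non-cycling (right) cells of the control and of the RUNX1-labelled library. VPREB1 is shifted to higher counts in both states of the RUNX1-labelled library, whose non-cycling cells also form a separate peak at 0 UMIs, and CD79A differs in the non-cycling cells.

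The non-cycling cells of the RUNX1-labelled library held a minority with little or no VPREB1. After these distributions had been seen, cells with 0 to 2 VPREB1 UMIs after thinning were set apart. They were 186 of 2342 non-cycling cells of the RUNX1-labelled library (7.94%; 6.88 to 9.11), 112 of them with 0 UMIs, and 35 of 1846 of its cycling cells (1.90%). In the control they were 306 of 4782 cycling (6.40%) and 11 of 403 non-cycling cells (2.73%), where the median of 8 lies close to this limit. Without thinning, 383 of 2934 non-cycling cells of the RUNX1-labelled library (13.1%) had 0 to 2 VPREB1 UMIs and 237 had 0.

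In the 186 cells IGLL1 and VPREB3 were low as well. IGLL1 was at 117 CPM (103 to 133) against 1126 CPM (1114 to 1138) in the other 2156 non-cycling cells of the library, 9.58-fold lower. VPREB3 was at 54.8 CPM (45.3 to 65.6) against 453 CPM (445 to 461), 8.27-fold lower. IGLL1 was at 0 UMIs in 66.1% of the 186 cells and in 6.17% of the others. IGHM (281 against 618 CPM) and CD79B (231 against 477 CPM) were 2.20-fold and 2.06-fold lower, and CD79A differed least, 381 CPM (355 to 408) against 412 CPM (405 to 420). Among all 8125 genes at 10 CPM or more in either set of cells, 20.6% were higher and 9.72% lower by 0.5 on the log2 scale in the 186 cells.

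Several genes of the same pathway, chosen after their values had been seen, were compared in the same cells. The λ constant gene IGLC7 was at 349 CPM in the 186 cells and 5560 CPM in the others. BLNK, the adaptor that links SYK to downstream signalling, was at 2.81 CPM (1.03 to 6.11, from 6 UMIs) and 48.6 CPM. DNTT, the polymerase that adds bases during V(D)J recombination, was at 10.8 and 87.1 CPM. B cell genes did not all move together. PAX5 (99.7 and 107 CPM) and EBF1 (237 and 198 CPM) differed little, whereas the B precursor markers MME (24.3 and 173 CPM) and TCL1A (176 and 985 CPM) were 7.13-fold and 5.58-fold lower in the 186 cells, and SPIB (58.0 and 212 CPM) was 3.65-fold lower. IGHD and the kinase FYN were higher in the 186 cells, at 74.0 against 41.8 CPM and at 42.6 against 16.6 CPM. The 186 cells had a median of 10818 UMIs against 13314.5 in the others and a median of 14.7% mitochondrial UMIs against 13.7%. The part of depth and mitochondrial content in these values was not tested.

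**Figure D5:**
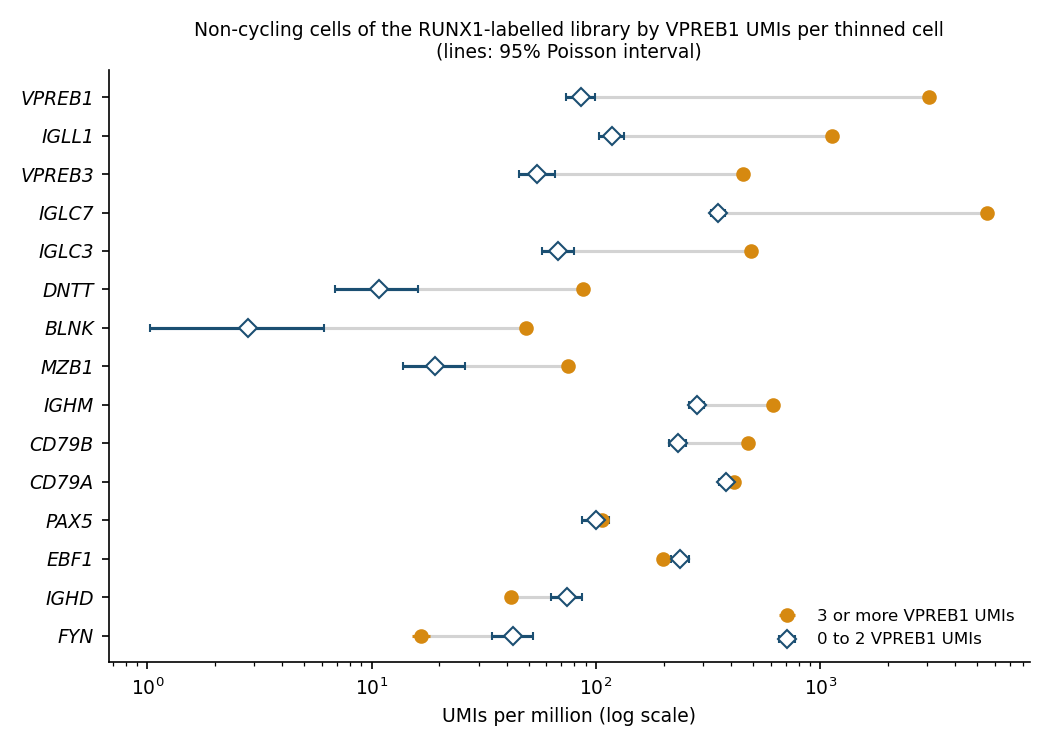
CPM (log scale) of the 6 detected genes and of other B cell genes in non-cycling cells of the RUNX1-labelled library, for the 186 cells with 0 to 2 VPREB1 UMIs after thinning (open diamonds) and the other 2156 cells (filled circles), with 95% Poisson intervals. IGLL1, VPREB3, IGLC7 and BLNK are far lower in the 186 cells, whereas CD79A, PAX5 and EBF1 lie close together.

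The non-cycling cells of the RUNX1-labelled library were also divided by genes that were nearly absent from the control: cells with a UMI of C1orf141 or LINC00967 (231 of 2342), else with the chemokine genes CCL3 or CCL4 (830), else with FCER1G, the Fc receptor γ chain (462), and the rest (819). VPREB1 was lowest in the C1orf141 or LINC00967 cells, at 1538 CPM (1493 to 1583), and highest in the FCER1G and CCL3 or CCL4 cells, at 3471 and 3391 CPM, with 2487 CPM in the rest. IGLL1 was 308 CPM (288 to 328) in the C1orf141 or LINC00967 cells and between 1060 and 1205 CPM in the other subsets. Of the 186 cells with 0 to 2 VPREB1 UMIs, 91 (48.9%) were C1orf141 or LINC00967 cells, 39.4% of that subset, against 3.17% of the rest.

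CD79A had another order over the subsets. It was 572 CPM (558 to 587) in the CCL3 or CCL4 cells, 471 CPM in the FCER1G cells, 448 CPM in the C1orf141 or LINC00967 cells and 253 CPM (245 to 262) in the rest, close to the 241 CPM of non-cycling control cells. CD79B was likewise highest in the CCL3 or CCL4 cells (570 CPM), but lowest in the C1orf141 or LINC00967 cells (283 CPM). VPREB3 was highest in the rest, at 559 CPM (546 to 572), and lowest in the C1orf141 or LINC00967 cells, at 202 CPM (186 to 219). The rest had deeper cells, with a median of 15933 UMIs against 11130 to 12149.5 in the other subsets, and the part of depth in these levels was not tested.

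Within a library and state, the counts of the members in the same cells were only weakly related. Spearman correlations of thinned UMIs between pairs, which share each cell's library and depth, were 0.31 or less in all 4 groups. VPREB1 and VPREB3 had 0.22 in cycling (n = 4782) and 0.23 in non-cycling (n = 403) control cells and 0.25 (n = 1846) and 0.31 (n = 2342) in the RUNX1-labelled library. VPREB3 and CD79A had 0.31 in both states of the control, 0.16 in cycling and -0.0085 in non-cycling cells of the RUNX1-labelled library. These values describe sparse counts and are given without a test.

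Over the 6 groups formed by library and the calls G1, S and G2/M, the genes with the pattern most like each member were found among 8477 genes, by the root mean square difference (rms) of centred log2(CPM + 1). For VPREB1 they were TAPT1-AS1 (0.062), REEP2 (0.075) and RP11-792A8.4 (0.091), and for VPREB3 HYKK (0.094), MT-ATP6 (0.097) and TCEA2 (0.10). For IGLL1 they were CNTRL (0.050), DBF4B (0.11) and C19orf40 (0.12). For CD79A they were UBE2H (0.068), PNRC1 (0.13) and TNFAIP8L2 (0.14), for CD79B ADAM10 (0.034), SBF1 (0.040) and ZNF358 (0.047), and for IGHM CHTOP (0.018), COQ4 (0.028) and ATP5L (0.028). No member was among the 3 nearest genes of another member. Genes had to reach 10 CPM in any of the groups, and this floor can itself favour a like pattern. REEP2, RP11-792A8.4 and TNFAIP8L2 reached it only in G1 cells of the RUNX1-labelled library, where VPREB1 and CD79A were highest. HYKK reached it only in that library, and DBF4B and C19orf40 were below it in G1 cells of both.

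The other genes of the receptor pathway did not share a direction. Of 59 listed genes that reached 10 CPM in either library, 10 were higher and 17 lower in the RUNX1-labelled library over all cells, 8 and 15 of 58 in cycling cells, and 13 and 24 of 63 in non-cycling cells. Among all genes the shares higher and lower were 13.8% and 21.4% over all cells, 6.54% and 12.9% in cycling cells and 22.3% and 21.3% in non-cycling cells, and nothing is read from the list counts beyond this. Values below are for all cells unless a state is named. Among the kinases that act just below CD79A and CD79B, 2 of 8 were higher and 1 lower. The SRC family kinases LCK (9.37 CPM in the control, 44.9 CPM in the RUNX1-labelled library) and BLK (29.7 and 61.7 CPM) were higher, and CSK, which restrains SRC family kinases, was lower (65.9 and 21.9 CPM). ZAP70 was at 12.2 and 9.25 CPM.

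Of the 8 adaptors and effectors, 2 were higher and 2 lower. The phospholipase PLCG2 (14.4 and 21.4 CPM) was among the higher over all cells, but its log2 ratio was 0.30 in cycling and 0.47 in non-cycling cells, below the limit in both. PIK3R1 (114 and 63.6 CPM) and GRB2 (103 and 67.4 CPM) were lower. Of 8 inhibitors 3 were higher and 3 lower, among them the phosphatase PTPN6 (88.4 and 254 CPM) and CD72 (19.6 and 35.8 CPM) on the higher side and CD22 (21.2 and 9.46 CPM) and DOK3 (79.8 and 45.7 CPM) on the lower. Within state, CD72 did not reach the limit in non-cycling cells (0.30) and DOK3 did not in cycling cells (-0.48).

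Of 15 transcription factors 2 were higher and 4 lower. SPIB, an ETS factor of B cells, was at 2.68 CPM in the control against 148 CPM in the RUNX1-labelled library, and POU2F2, which binds the octamer, at 11.0 and 106 CPM. The octamer coactivator POU2AF1 was lower, at 21.7 and 8.89 CPM. Of 6 V(D)J recombination genes 3 were lower and 0 higher over all cells: DNTT (579 and 191 CPM), RAG2 (35.6 and 18.4 CPM) and RAG1 (40.6 and 24.4 CPM), with XRCC4 at 19.7 and 15.3 CPM. RAG1 was lower in non-cycling cells, with a log2 ratio of -2.19, and differed little in cycling cells (40.3 and 38.2 CPM). In non-cycling cells 4 of the 6 were lower and 1, DCLRE1C, was higher (0.71). Of 10 genes for immunoglobulin chain assembly in the endoplasmic reticulum 4 were lower and 0 higher: MZB1 (250 and 99.3 CPM), HSP90B1 (353 and 213 CPM), CALR (609 and 374 CPM) and CANX (185 and 130 CPM). In cycling cells CANX did not reach the limit (-0.48).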

How the data were processed

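The deposited files were 10x Genomics gene-by-barcode matrices of raw UMI counts, made by the authors with Cell Ranger 3.0.2 (per the labels) on combined hg19 and mm10 references; the counting settings were not given in the sources used here. Mouse rows took 1.88% and 1.01% of UMIs in passing cells and were left out. Cells with more than 2000 and fewer than 6000 genes and under 20% mitochondrial UMIs were kept. States were called with scanpy 1.11.5 on both libraries together, from log counts scaled to 10000 per cell. Levels are summed UMIs of a gene as counts-per-million (CPM) of the human total, with exact Poisson intervals; ratios have exact conditional binomial intervals and shares exact Clopper-Pearson intervals, all at 95%. With 1 library per group no test was made. A difference of 0.5 on the log2 scale was called among genes that reached 10 CPM in a group compared. Ratios of the members were taken without pseudocount. For the shares over all genes and the counts of pathway genes, fewer than 3 UMIs in a group were set to 3. All members were named, and up to 4 genes per pathway list with the largest log2 ratio at that floor, the 3 genes most alike in pattern per member, and the genes that define subsets; 1 gene that this rule names is not reported here. Members and lists were chosen with earlier results of these data known. No doublet caller was run. Gene positions were taken from GENCODE by Ensembl ID and promoter sequences from RefSeq. Summing and ratio steps were tested on simulated data. Python 3.11.15, numpy 2.4.6, scipy 1.17.1, pandas 2.3.3, R 4.3.3 and edgeR 4.0.16 (TMM factors only) were used.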

Additional observations from a re-analysis of the deposited data

How the results depend on the processing

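No paired analysis was possible because each single-cell group was 1 library, and the replicate numbers belong to ChIP-seq samples not analysed here. No call changed direction under the alternatives tried, and 116 of 125 recomputed counts stayed within 1.5 times the reported one. Single values moved more: 162 of the recomputed log2 ratios left the counting interval of the reported value and 150 did not; 24 shares and 16 correlations moved beyond sampling error, and 24 and 44 did not. A 2-fold limit left 0 members higher in cycling cells (2 as reported) and 1 in non-cycling cells (3). Between states it left 1 higher and 0 lower in the RUNX1-labelled library (2 and 1), and 0 and 0 in the control (1 and 1). TMM scaling and median-of-ratios scaling each left 1 member higher in non-cycling cells of the RUNX1-labelled library (2 as reported). A floor of 1 CPM gave 18 other pathway genes higher (10 as reported). Scaling moved the log2 ratios over all cells by -0.13 (TMM and median of ratios) or by 0.20 (totals without mitochondrial and ribosomal protein genes). The median of ratios was taken over all genes with a UMI in both groups, without the floor of 10 CPM. Among genes at that floor the median log2 ratio was itself -0.13, and scaling on those genes alone was not tried. A 10% mitochondrial limit kept 65.2% of control cells but 12.5% of those of the RUNX1-labelled library; under it the CD79B log2 ratio was 0.89 over all cells (0.42 as reported) and 1.13 in non-cycling cells (0.38), and that of CD79A in non-cycling cells was 1.66 (0.94). Over all cells, the alternatives gave log2 ratios of 1.05 to 1.38 for VPREB1, 0.59 to 1.03 for VPREB3, 0.897 to 1.497 for CD79A and -0.23 to 0.13 for IGLL1.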

Other observations

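The immunoglobulin genes outside the 7 members gave further values, over all cells unless a state is named. IGLC7 was the most abundant λ constant gene, at 5141 CPM in the control against 6170 CPM in the RUNX1-labelled library, followed by IGLC3 at 320 and 445 CPM; the λ constant genes are near-identical copies, so the split of reads between them is uncertain. IGLC4 was at 0.924 and 13.1 CPM. The log2 ratio of IGLC7 between libraries was 0.52 in cycling and 0.039 in non-cycling cells. IGKC, the κ constant gene, had 0 UMIs in both libraries, which leaves upper limits of 0.0487 and 0.0490 CPM. Among variable segments, IGLV2-14 was at 44.1 and 47.0 CPM, and IGHV1-69 had the most UMIs of the heavy chain segments in both libraries, 423 and 406.

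IGHD, which is transcribed together with IGHM, was at 45.3 CPM in the control against 41.5 CPM in the RUNX1-labelled library. Its log2 ratio was -0.43 in cycling and 0.44 in non-cycling cells. IGHA1, a heavy chain constant gene named here after its values had been seen, had 0 UMIs in the control and 406 UMIs in 269 cells of the RUNX1-labelled library (5.39 CPM; 4.88 to 5.94). Against a floor of 3 UMIs set for the control library the ratio was 136-fold, which is not a lower limit. The interval of its log2 ratio had a lower limit of 6.78 over all cells. Of the 406 UMIs, 376 were in 247 non-cycling cells. Within non-cycling cells, of which the control had only 467, the lower limit was 3.78.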
